A study of Mus musculus with 4 samples.

Results

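The metallothioneins and glucocorticoid-response genes form a set of 7 of the 17780 genes in the deposited lung expression table: the 2 metallothioneins Mt1 and Mt2, and the 5 glucocorticoid-response genes Fkbp5, Tsc22d3, Zbtb16, Sgk1 and Cdkn1a. The set was picked on a measured value, since Mt2 was among the largest falls in the dabigatran library, and the other members were added by family and known regulation. All 7 genes were in the table, and each had between 252 and 7172 estimated reads in every library. Male mice aged 6 to 7 weeks, C57BL/6 by the labels and C57BL/6J by the study's methods, were dosed by mouth 5 times per week for 4 weeks with vehicle, with amiodarone (300 mg/kg), with dabigatran (60 mg/kg) or with the combination of both, with 0.5% carboxymethylcellulose shared by all groups. Amiodarone is an antiarrhythmic drug known for lung toxicity, and dabigatran is a direct inhibitor of thrombin; the study asked how dabigatran changes the lung response to amiodarone. Poly(A) RNA of the lung was sequenced in 1 library per group, on day 26 by the study's methods and after 28 days by the sample labels, so no group has a replicate and no test between treatments was possible. Reads on genes summed to between 17498486 and 18903401 per library.

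Metallothioneins are small cysteine-rich proteins that bind zinc and copper. Their genes are switched on by the zinc sensor MTF1, which binds metal response elements in their promoters, and are also raised by glucocorticoids and by cytokines of the acute phase. Glucocorticoids bind a receptor held in the cytoplasm by a chaperone complex, after which the receptor enters the nucleus and acts on genes that carry its response elements. Fkbp5, Tsc22d3 and Zbtb16 are widely used as readouts of that receptor, Sgk1 is a kinase gene that it switches on early, and Cdkn1a answers to it as well as to p53. In the lung these genes are raised by circulating corticosterone and by steroid treatment.

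Mt1 and Mt2 lie side by side on mouse chromosome 8, Mt2 at chr8:94172618-94173567 and Mt1 at chr8:94178883-94180327 of GRCm38.p6, both on the plus strand with 5315 bases between them. Their promoter windows are shown because both genes were lowest in the same library and both are known targets of MTF1. Each window, taken from RefSeq for GRCm38.p6, runs from 250 bases before to 50 bases after an annotated start, here chr8:94178839-94179138 for Mt1 and chr8:94172368-94172667 for Mt2, plus strand. Capitals mark the core of the metal response element, TGCACNC or TGCGCNC, searched on both strands.
Mt1 promoter: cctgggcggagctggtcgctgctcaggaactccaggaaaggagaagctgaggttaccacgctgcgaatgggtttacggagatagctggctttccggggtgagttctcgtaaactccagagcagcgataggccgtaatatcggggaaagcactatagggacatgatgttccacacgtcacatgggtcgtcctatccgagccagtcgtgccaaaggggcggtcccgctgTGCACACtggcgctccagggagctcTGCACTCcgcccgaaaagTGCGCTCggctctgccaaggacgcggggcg
Mt2 promoter: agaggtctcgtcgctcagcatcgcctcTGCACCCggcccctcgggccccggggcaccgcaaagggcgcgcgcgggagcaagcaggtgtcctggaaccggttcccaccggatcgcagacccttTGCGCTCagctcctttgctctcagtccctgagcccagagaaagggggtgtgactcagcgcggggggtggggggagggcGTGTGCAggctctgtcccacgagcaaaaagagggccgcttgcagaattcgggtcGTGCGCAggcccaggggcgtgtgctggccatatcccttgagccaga
The Mt1 window held 3 cores and the Mt2 window 4, and the last 2 cores of Mt2 read on the minus strand. Past the windows and before the coding start, the GENCODE transcripts Mt1-201 and Mt2-201 held 2 and 3 more cores. The windows therefore do not hold every core near the start. At least 1 core was found in 25.7% of the 32851 RefSeq promoter windows, at least 3 in 1.97% and at least 4 in 0.517%. The windows of Fkbp5, Tsc22d3 and Cdkn1a held none, and 1 of the 6 Sgk1 windows held 1. These are letter matches only, and nothing in these data measured a factor on them.

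The coding sequences of both genes are shown because the proteins are built around cysteines and because near-identical genes could share reads. Capitals mark the cysteine codons, TGC and TGT, in GENCODE M21 transcripts of GRCm38.p6 with 3 exons each, Mt1-201 coding between positions 94179311 and 94180193 and Mt2-201 between positions 94172848 and 94173427.
Mt1 coding sequence: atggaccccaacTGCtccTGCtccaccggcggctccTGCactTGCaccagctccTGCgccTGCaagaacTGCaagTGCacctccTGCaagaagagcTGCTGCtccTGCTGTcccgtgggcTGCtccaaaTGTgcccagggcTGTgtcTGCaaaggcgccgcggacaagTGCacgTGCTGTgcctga
Mt2 coding sequence: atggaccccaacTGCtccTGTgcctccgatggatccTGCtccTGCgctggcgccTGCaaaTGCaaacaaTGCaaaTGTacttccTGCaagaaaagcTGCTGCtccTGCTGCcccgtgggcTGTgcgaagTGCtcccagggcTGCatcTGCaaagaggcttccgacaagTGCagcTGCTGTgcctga
Each sequence is 186 bases long and holds 61 codons before the stop, 20 of them for cysteine. All 20 cysteine codons stood at the same positions in both genes, and 148 of the 186 bases (79.6%) were identical. The transcripts shared 0 runs of 25 bases, of 525 such runs in Mt1-201 and 487 in Mt2-201, so a read that matched either one over 25 bases without mismatch matched only that one of this pair.

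The receptor's response element is an inverted pair of hexamers, AGAACA and TGTTCT, 3 bases apart, each being the other read on the opposite strand. Among the 14 promoter windows of the 6 members with an entry, this exact pair occurred in 1, a window of Sgk1 at chr10:21993640-21993939 on the plus strand. It is printed with all of its hexamers in capitals.
Sgk1 promoter: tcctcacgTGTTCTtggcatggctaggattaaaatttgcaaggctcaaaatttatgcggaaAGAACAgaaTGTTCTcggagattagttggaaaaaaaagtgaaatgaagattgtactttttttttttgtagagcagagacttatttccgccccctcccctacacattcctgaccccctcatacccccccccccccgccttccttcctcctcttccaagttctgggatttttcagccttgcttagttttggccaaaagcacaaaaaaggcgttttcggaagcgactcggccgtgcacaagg
The window held 3 hexamers, of which the last 2 form the pair, with first bases at -189 and -180 from the annotated start. Only 3 of all 32851 windows (0.00913%) held such a pair, the others being those of Acnat2 and Gm35041. Single hexamers occurred in 2 other Sgk1 windows and in 1 of 3 Tsc22d3 windows, against 19% of all windows with at least 1. The windows of Mt1, Mt2, Fkbp5 and Cdkn1a held no hexamer, which says only that these letters are not within 250 bases of the start.

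Levels are given in FPKM, the number of fragments per kilobase of a transcript after scaling for depth. A ratio is the FPKM of one library over that of another, and its 95% interval was computed from the reads of both (exact Clopper-Pearson). The interval covers counting error only, so it compares libraries and not treatments. For counts over many genes, a gene was called higher or lower at a difference of at least 1.5-fold on log2(FPKM + 1), among genes at 1 FPKM or more in either library.

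**Figure D1:**
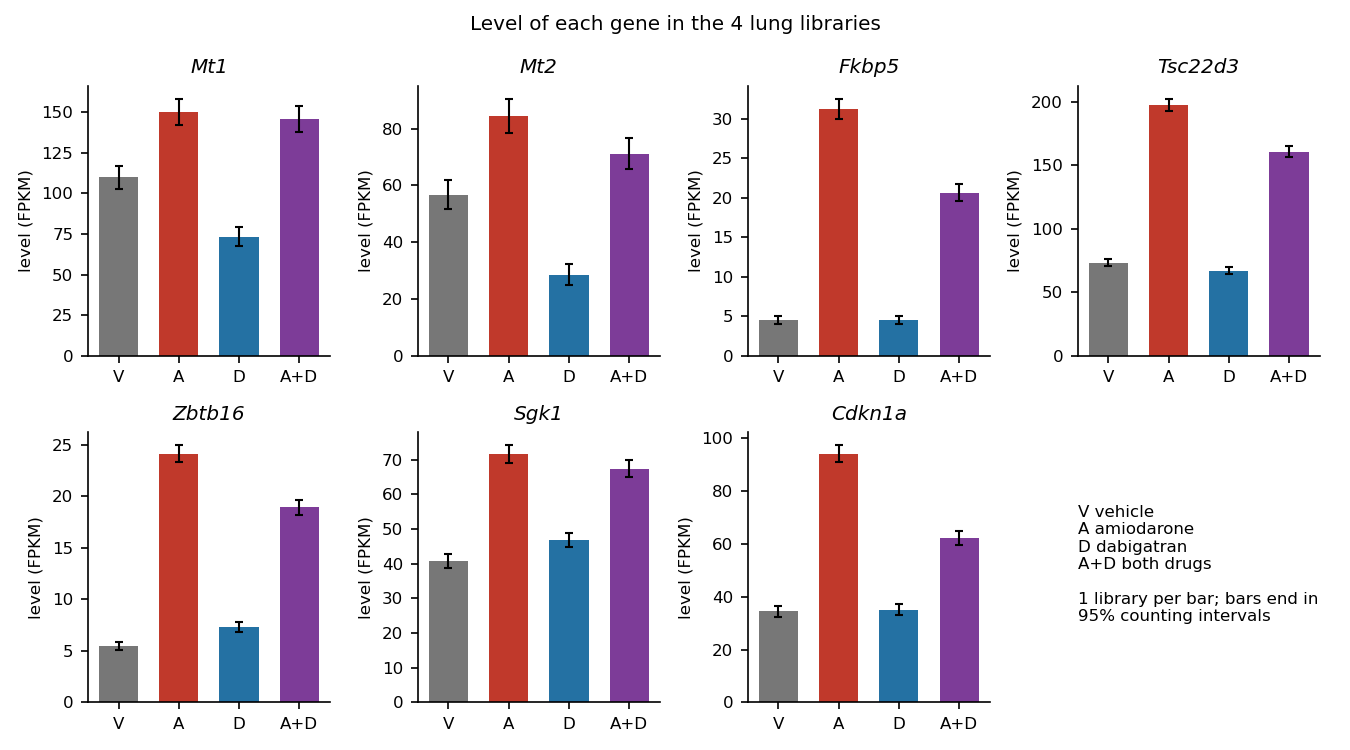
Level in FPKM of each of the 7 genes in the vehicle (V), amiodarone (A), dabigatran (D) and amiodarone + dabigatran (A+D) libraries, with 95% counting intervals as bars and 1 library per column. All 7 genes were highest with amiodarone alone, and Mt1 and Mt2 were lowest with dabigatran alone, at 73.3 and 28.5 FPKM.

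Mt1, which encodes the more abundant of both metallothioneins, was at 109.9 FPKM with vehicle, 150.03 FPKM with amiodarone, 73.3 FPKM with dabigatran and 145.6 FPKM with both drugs. The dabigatran library was the lowest, the vehicle library lay above it, and both libraries with amiodarone lay higher and within counting error of each other. Mt2 was at 56.7 FPKM with vehicle, 84.4 FPKM with amiodarone, 28.5 FPKM with dabigatran and 71.0 FPKM with both drugs. Its libraries fell in the same order, and each step was larger than counting error. Both genes were expressed at levels per length that exceeded those of Zbtb16 and Fkbp5 in every library. Mt3, a family member known mainly from brain, was near the limit of detection, with 10, 3, 15 and 7 reads with vehicle, amiodarone, dabigatran and both drugs. At those few reads Mt3 was lower by the 1.5-fold threshold in both amiodarone comparisons, at -0.72 and -0.64 on log2(FPKM + 1), with counting intervals of both ratios that included 1. Mt4 was not among the genes of the deposited expression table, so it has no level here.

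With dabigatran alone, the ratio to vehicle was 0.503 (0.430 to 0.586) for Mt2 and 0.667 (0.602 to 0.739) for Mt1. These values describe the contrast on which Mt2 was picked and support nothing further. Mt2 was the gene with the 10th lowest difference of 13373. Just above it in the order of falls stood Apoa2, which went from 9 reads to 1, and just below it Lenep, from 54 reads to 23. The 9 genes with larger falls all had 12.9 FPKM or less with vehicle. Mt2 itself was at 56.7 FPKM with vehicle, a value that is part of the contrast on which it was picked. Mt1 just missed the 1.5-fold threshold, at -0.58 on log2(FPKM + 1). Of the 7 members, 1 (Mt2) was lower by this threshold, where 0.508% of all genes were, and 0 were higher, where 0.449% were; with Mt2 as the reason for the choice, nothing was read from the count.

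Amiodarone went with higher Mt1 and Mt2 levels both without and with dabigatran. The ratio of amiodarone to vehicle was 1.37 (1.26 to 1.49) for Mt1 and 1.49 (1.33 to 1.67) for Mt2. Between both drugs and dabigatran alone it was 1.99 (1.81 to 2.19) for Mt1 and 2.49 (2.15 to 2.89) for Mt2. The larger ratio in the presence of dabigatran has the low dabigatran library as its denominator, which is the library that picked Mt2. When dabigatran was added to amiodarone, Mt1 lay within counting error at a ratio of 0.970 (0.899 to 1.05), and Mt2 was lower at 0.842 (0.758 to 0.935). In this bulk RNA, fewer cells of a type and less RNA per cell cannot be told apart.

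The balance between both metallothioneins also differed among libraries. Per FPKM of Mt1, the level of Mt2 was 0.516 (0.462 to 0.577) with vehicle, 0.562 (0.514 to 0.614) with amiodarone, 0.389 (0.335 to 0.451) with dabigatran and 0.488 (0.444 to 0.536) with both drugs. The dabigatran interval lay below that of the vehicle and amiodarone libraries and overlapped narrowly with that of both drugs, and it contains the low Mt2 value on which the set was picked.

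The other genes of zinc and metal handling did not pass the threshold. Of 22 listed genes, 0 were higher and 0 were lower by 1.5-fold in any of the 4 comparisons, with medians between 0.01 and 0.06 on log2(FPKM + 1). Mtf1, the zinc sensor itself, was at 4.07 FPKM with vehicle, 4.23 FPKM with amiodarone, 3.64 FPKM with dabigatran and 3.80 FPKM with both drugs, and all 4 of its ratios lay within counting error. Slc30a1, the zinc exporter that MTF1 also switches on, was at 9.21, 9.34, 10.8 and 10.2 FPKM in the same order. Its dabigatran to vehicle ratio was 1.17 (1.07 to 1.29). The activity of MTF1 was not measured. Slc40a1, the iron exporter ferroportin, was at 2.92, 4.81, 3.11 and 4.95 FPKM and lay just under the threshold with amiodarone.

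**Figure D2:**
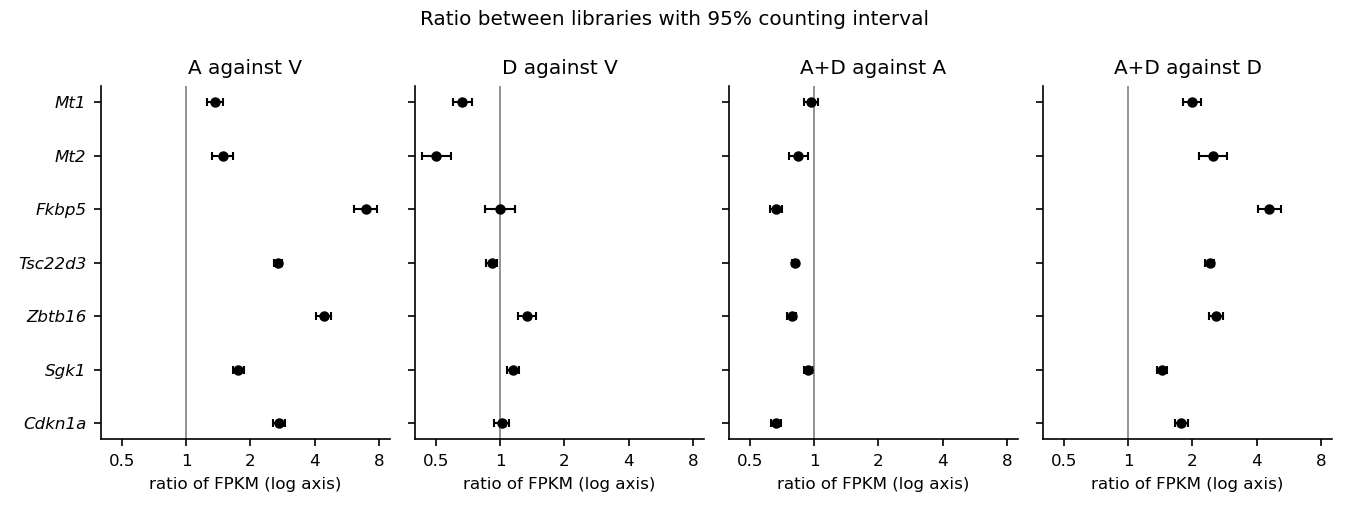
Ratio of FPKM between libraries for the 7 genes in 4 comparisons, on a log axis, with 95% counting intervals as bars and a line at a ratio of 1. With amiodarone all 7 points lie right of the line both without dabigatran (A against V, up to 6.94) and with it (A+D against D, up to 4.58), while with dabigatran added to amiodarone all 7 lie left of it (A+D against A).

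All 5 glucocorticoid-response genes were higher with amiodarone than with vehicle. Fkbp5, a co-chaperone that lowers the hormone affinity of the receptor, lies at chr17:28398753-28486149 on the minus strand. It was at 4.5 FPKM with vehicle, 31.2 FPKM with amiodarone, 4.51 FPKM with dabigatran and 20.7 FPKM with both drugs. Vehicle and dabigatran were within counting error of each other and far below the libraries with amiodarone, and the ratio of amiodarone to vehicle was 6.94 (6.15 to 7.85). That placed Fkbp5 at rank 19 from the highest of 13402 genes. With dabigatran in both libraries the ratio was 4.58 (4.05 to 5.20), rank 29 of 13379.

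Zbtb16, which encodes the transcription factor PLZF, lies at chr9:48651797-48836225. Its level was 5.46 FPKM with vehicle, 24.1 FPKM with amiodarone, 7.32 FPKM with dabigatran and 18.9 FPKM with both drugs. Every step in this order exceeded counting error, the vehicle library being the lowest. The amiodarone ratio was 4.41 (4.07 to 4.79) without dabigatran and 2.58 (2.40 to 2.78) with it. Tsc22d3, which encodes the anti-inflammatory protein GILZ and lies on the X chromosome at chrX:140539528-140600522, had the highest level of the 5. It was at 73.3 FPKM with vehicle, 197.7 FPKM with amiodarone, 66.9 FPKM with dabigatran and 160.8 FPKM with both drugs. Here dabigatran was slightly below vehicle, and the amiodarone ratio was 2.70 (2.58 to 2.82) without dabigatran and 2.40 (2.29 to 2.52) with it.

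Sgk1, a kinase that keeps sodium channels at the cell surface, lies at chr10:21882184-21999903 on the plus strand. It was at 40.8 FPKM with vehicle, 71.7 FPKM with amiodarone, 46.8 FPKM with dabigatran and 67.4 FPKM with both drugs. The spread among libraries was the smallest of the 5 genes, with amiodarone ratios of 1.76 (1.66 to 1.86) and 1.44 (1.36 to 1.53) without and with dabigatran. Cdkn1a, which encodes the cell cycle inhibitor p21, lies at chr17:29090979-29100722 on the plus strand. It was at 34.5 FPKM with vehicle, 94.03 FPKM with amiodarone, 35.1 FPKM with dabigatran and 62.2 FPKM with both drugs. Vehicle and dabigatran were within counting error, and both drugs lay between them and amiodarone. The amiodarone ratios were 2.73 (2.55 to 2.92) and 1.78 (1.65 to 1.91).

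Counted together, 5 of the 7 members were at least 1.5-fold higher with amiodarone than with vehicle, against 4.34% of all 13402 genes, and 0 were lower, against 3.93%. The members that missed the threshold were Mt1 and Mt2. The median difference of the 7 was 1.42 on log2(FPKM + 1), and that of all genes -0.05. Between both drugs and dabigatran alone, 6 of the 7 were higher, against 3.25% of 13379 genes, and 0 were lower, against 2.04%. The medians were 1.25 for the members and -0.01 for all genes, and Sgk1 was the member below the threshold. These comparisons share no library, although Mt2 was picked on the vehicle and dabigatran libraries that serve as their denominators. Rescaling the libraries by the median ratio over genes brought Mt2 past the threshold for amiodarone against vehicle, which gave 6 of 7.

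All 7 members were lower with both drugs than with amiodarone alone, Mt1 within counting error. The ratio was 0.662 (0.620 to 0.707) for Fkbp5 and 0.662 (0.627 to 0.699) for Cdkn1a. It was 0.784 (0.745 to 0.825) for Zbtb16, 0.814 (0.786 to 0.842) for Tsc22d3 and 0.941 (0.895 to 0.988) for Sgk1. Of the members, 1 (Cdkn1a) was lower by 1.5-fold, against 1.22% of 13261 genes, and 0 were higher, against 1.06%. The median of the 7 was -0.30 on log2(FPKM + 1), where that of all genes was 0.03. Fkbp5 lay just short of the threshold at -0.57 and crossed it with a pseudocount of 0.1 or with the median ratio scaling. All 7 genes with both drugs stayed above their vehicle level.

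With dabigatran alone none of the 5 glucocorticoid-response genes passed 1.5-fold. Fkbp5 had a ratio of 1.0 (0.852 to 1.18) and Cdkn1a one of 1.02 (0.936 to 1.11), both within counting error. Tsc22d3 was lower at 0.913 (0.862 to 0.967). Zbtb16 was higher at 1.34 (1.22 to 1.48), rank 277 from the highest of 13373 genes, and Sgk1 higher at 1.15 (1.07 to 1.22), so both of these moved in the opposite direction to the one seen when dabigatran was added to amiodarone.

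The amiodarone ratio with dabigatran over the one without it was above 1 for the metallothioneins and below 1 for the other members. This ratio of ratios was 1.46 (1.28 to 1.65) for Mt1 and 1.67 (1.39 to 2.01) for Mt2. It was 0.585 (0.525 to 0.652) for Zbtb16, 0.651 (0.590 to 0.718) for Cdkn1a and 0.661 (0.556 to 0.784) for Fkbp5. Tsc22d3 at 0.891 (0.834 to 0.952) and Sgk1 at 0.820 (0.757 to 0.890) were closer to 1. The amiodarone difference was thus larger beside dabigatran for Mt1 and Mt2 and smaller for the 5 glucocorticoid-response genes, beyond counting error in each. For Mt2 the quantity contains the low dabigatran value that picked it. For Mt1 it contains the level in that same library, where Mt1 was lowest too. The values above 1 are therefore not apart from the choice of the set.

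**Figure D3:**
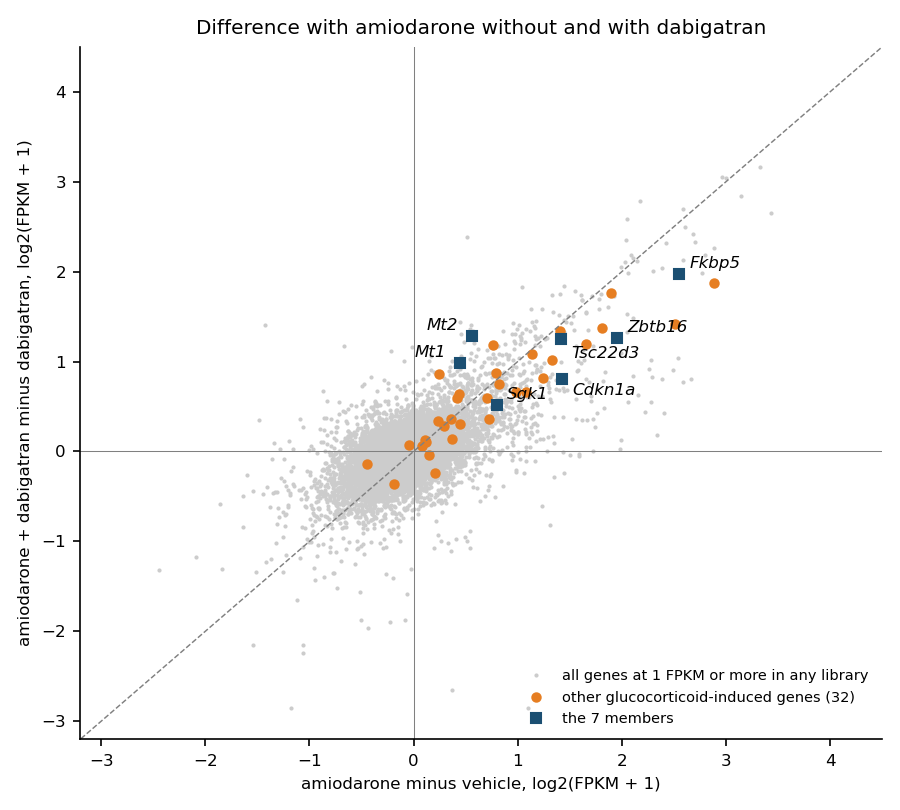
Difference on log2(FPKM + 1) between amiodarone and vehicle (x axis) and between both drugs and dabigatran alone (y axis), with the 7 members as squares, the 32 other glucocorticoid-induced genes as larger circles and all other genes in grey; the dashed line marks equal differences. Mt1 and Mt2 lie above the dashed line, and Fkbp5, Zbtb16, Tsc22d3, Cdkn1a and Sgk1 lie below it.

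A list of 32 other genes known to be induced by glucocorticoids in various tissues showed the same direction as the members. With amiodarone 16 of the 32 were at least 1.5-fold higher than with vehicle and 0 lower, against 4.34% and 3.93% of all genes. Of the 32, 29 lay above 0, and the median was 0.57 on log2(FPKM + 1). Between both drugs and dabigatran alone 18 were higher and 0 lower, against 3.25% and 2.04%, with a median of 0.62. In both pairs 15 of the 32 were higher, compared with 280 of 13245 genes (2.11%) over the whole table. The list was written with earlier results of these data known, so these counts are a description.

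Within that list, Il1r2, a decoy receptor for interleukin-1, had the largest difference. It was at 0.71 FPKM with vehicle, 11.7 FPKM with amiodarone, 0.40 FPKM with dabigatran and 4.15 FPKM with both drugs. Fam107a, an actin-associated gene raised by stress, was at 3.57, 25.04, 4.6 and 13.9 FPKM in the same order. Angptl4, an inhibitor of lipoprotein lipase, was at 11.7, 46.2, 9.17 and 33.5 FPKM. All of these were highest with amiodarone alone and second with both drugs, as Fkbp5 was. The clock gene Per1, a direct target of the receptor, was at 23.2, 59.7, 22.6 and 46.6 FPKM, with an amiodarone ratio of 2.58 (2.45 to 2.72). Klf9, a transcription factor gene used like Fkbp5 as a readout, was at 39.2, 78.5, 43.3 and 68.8 FPKM, a ratio of 2.0 (1.90 to 2.11). Dusp1, a phosphatase gene that stress signals also raise, differed less, at 105.3, 136.5, 107.7 and 119.0 FPKM. Txnip went the other way, with 365.2, 268.4, 304.99 and 277.1 FPKM.

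**Figure D4:**
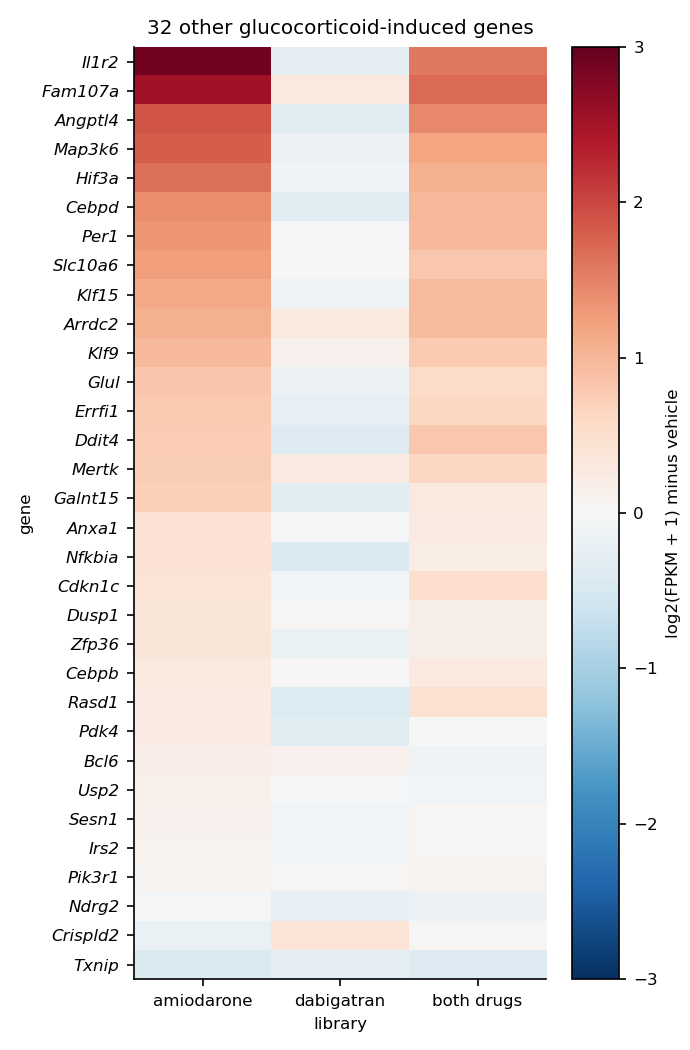
Difference from vehicle on log2(FPKM + 1) for the 32 other glucocorticoid-induced genes in the amiodarone, dabigatran and amiodarone + dabigatran libraries, ordered by the first column; red is higher and blue lower than vehicle. Most rows are red with amiodarone and paler with both drugs, and the dabigatran column stays close to white; all 3 columns share the vehicle library.

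With dabigatran added to amiodarone, 4 of the 32 genes were at least 1.5-fold lower and 0 higher, against 1.22% and 1.06% of all genes. Of the 32, 26 lay below 0, and the median was -0.19. Il1r2, Fam107a and Map3k6, a stress kinase gene, had the largest falls, at ratios of 0.356 (0.281 to 0.448), 0.556 (0.509 to 0.606) and 0.642 (0.603 to 0.684). Dabigatran alone gave 0 higher and 0 lower genes among the 30 with enough signal, with a median of -0.09. The amiodarone ratio was lower beside dabigatran than without it in 22 of the 32 genes and higher in 10, although the median ratio over the 32 was 1.53 without dabigatran and 1.57 with it. Ddit4, an inhibitor of mTOR signalling, was among the 10, at 12.7, 22.3, 9.50 and 22.9 FPKM with vehicle, amiodarone, dabigatran and both drugs. It was lowest with dabigatran alone, and both libraries with amiodarone lay within counting error of each other.

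Of the receptor and its machinery, 1 gene passed 1.5-fold in any comparison. Nr3c1, the glucocorticoid receptor gene, was at 28.8 FPKM with vehicle, 26.4 FPKM with amiodarone, 30.2 FPKM with dabigatran and 23.9 FPKM with both drugs, so it was lower in both libraries with amiodarone. The ratio was 0.916 (0.871 to 0.962) for amiodarone against vehicle and 0.790 (0.751 to 0.830) for both drugs against dabigatran. Hsd11b1, the enzyme that regenerates active corticosterone in tissue, was at 93.95, 106.9, 111.8 and 125.3 FPKM, highest with both drugs. Hsd11b2, the enzyme that inactivates the hormone, was the gene of 15 that passed upward with amiodarone, against 4.34% of all genes. It was at 0.76, 1.84, 0.88 and 0.91 FPKM. The chaperone gene Hspa8 lay just under the threshold with amiodarone, at 480.3, 718.0, 464.9 and 563.7 FPKM, so it was highest with amiodarone alone and second with both drugs. In the other 3 comparisons 0 genes of the list passed, and the medians lay between -0.04 and 0.00. Corticosterone itself was not measured in these files.

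Genes that glucocorticoids repress were mostly higher with amiodarone as well. Of 9 such genes with enough signal, 4 passed 1.5-fold upward and 0 downward, against 4.34% and 3.93% of all genes. Of the 9, 8 lay above 0 and the median was 0.52, beside 0.57 for the 32 other induced genes. That median is the value of Ccl2, which had only 20 reads with vehicle and 37 with amiodarone. Reads were also few for Tnf, at 21 and 32, and for Cxcl1, at 9 and 19. Cxcl10, an interferon-induced chemokine, was at 1.15, 4.80, 1.94 and 1.92 FPKM with vehicle, amiodarone, dabigatran and both drugs. Il1b, the gene of interleukin-1 beta, was at 5.05, 14.2, 3.63 and 14.5 FPKM, and the matrix protease gene Mmp9 at 4.28, 9.36, 3.68 and 9.83 FPKM. Cxcl10 was high with amiodarone alone only, whereas Il1b and Mmp9 were as high with both drugs. Ptgs2, the gene of cyclooxygenase-2, was at 3.82, 5.15, 3.68 and 2.89 FPKM, lowest with both drugs. Nos2, the gene of inducible nitric oxide synthase, was at 1.68, 1.05, 2.01 and 1.64 FPKM, lower with amiodarone than with vehicle at a ratio of 0.625 (0.459 to 0.846). Between both drugs and dabigatran alone, 2 of 7 passed upward and 0 downward, against 3.25% and 2.04% of all genes, with 3 below 0. With dabigatran alone 1 of 7 passed upward, namely Csf2, and 0 downward, against 0.449% and 0.508% of all genes. Csf2 was at 1.29, 3.10, 2.63 and 3.48 FPKM, with 22, 56, 44 and 62 reads.

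Sgk1 acts on sodium transport, and none of the 6 genes listed for that function passed 1.5-fold in any comparison. Their median was 0.23 with amiodarone against vehicle and 0.13 with both drugs against dabigatran. Scnn1a, a subunit of the epithelial sodium channel, was at 257.1, 330.9, 235.1 and 326.0 FPKM with vehicle, amiodarone, dabigatran and both drugs, so its higher libraries were also those with amiodarone. Among 8 close relatives of the members, 0 passed in 3 of the comparisons. Cdkn1c, the p57 gene and itself glucocorticoid-induced, passed upward between both drugs and dabigatran, against 3.25% of all genes. It was at 24.7, 33.3, 23.2 and 35.7 FPKM. Cdkn1b, the p27 gene, stayed between 35.2 and 37.7 FPKM in all 4 libraries.

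Cdkn1a is the best known p53 target, and the other p53 targets were divided. Of 18 with enough signal, 5 passed 1.5-fold upward with amiodarone and 0 downward, against 4.34% and 3.93% of all genes. The median of the 18 was nonetheless -0.02. Gdf15, a stress cytokine, was at 1.0, 12.6, 0.99 and 6.89 FPKM with vehicle, amiodarone, dabigatran and both drugs. It was highest with amiodarone alone and second with both drugs, as Cdkn1a was. The death receptor gene Fas was at 19.5, 39.6, 21.9 and 28.2 FPKM, and Trp53inp1 at 14.2, 25.7, 14.3 and 16.3 FPKM. Mdm2, the p53 inhibitor and a standard readout of p53, showed no such difference at 21.1, 20.5, 23.0 and 21.9 FPKM. Between both drugs and dabigatran alone, 1 of the 18 (Gdf15) was higher, against 3.25% of all genes. In that pair 2 were lower, against 2.04% of all genes, namely Btg2 and Plk2. The ratio was 0.635 (0.606 to 0.666) for Btg2 and 0.612 (0.563 to 0.665) for Plk2. Of 3 inhibitors of the INK4 family with enough signal, 0 passed in any comparison.

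Interleukin-6 signalling is another known route to Mt1 and Mt2. Of 10 genes of that pathway and the acute phase, 4 were higher and 0 lower with amiodarone, against 4.34% and 3.93% of all genes. Between both drugs and dabigatran 4 were higher and 0 lower, against 3.25% and 2.04%. Lcn2, which encodes the iron-binding protein lipocalin 2, was at 157.2, 920.9, 154.8 and 320.1 FPKM with vehicle, amiodarone, dabigatran and both drugs. Socs3, the feedback inhibitor of STAT3, was at 12.3, 38.7, 12.6 and 26.3 FPKM. Lrg1 was at 94.7, 222.5, 72.02 and 138.9 FPKM in the same order, and Saa3 had 16, 71, 10 and 54 reads. Both had their lowest value with dabigatran alone. For Saa3 the counting intervals with vehicle (1.10 to 3.13 FPKM) and with dabigatran (0.57 to 2.19 FPKM) overlapped. Hp and Cp went the other way with amiodarone, at ratios to vehicle of 0.850 and 0.874. With dabigatran alone 0 of the 10 passed in either direction, where 0.449% of all genes passed upward and 0.508% downward. Of the 10, 7 lay below 0 and 3 above, with a median of -0.12. Whether this pathway carried any difference in Mt1 or Mt2 was not tested.

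The time of day sets corticosterone and the clock genes alike, and the clock list was therefore measured beside the members. Of 14 genes other than Per1, 0 were higher and 1 was lower with amiodarone, against 4.34% and 3.93% of all genes. This was Dbp, an output gene of the clock, at 139.6, 89.2, 115.6 and 74.2 FPKM with vehicle, amiodarone, dabigatran and both drugs. Between both drugs and dabigatran alone 2 were higher and 2 lower, against 3.25% and 2.04%. Per2 was at 8.34, 12.7, 5.97 and 9.93 FPKM and Ciart at 9.53, 14.2, 7.06 and 11.3 FPKM, both lowest with dabigatran alone. Between dabigatran alone and vehicle 0 of the 14 passed in either direction, where 0.449% of all genes passed upward and 0.508% downward. Of the 14, 4 lay above 0 and 10 below. Nr1d1 was at 175.5, 134.7, 177.3 and 116.0 FPKM, low in the libraries with amiodarone. The hours at which the lungs were taken are not given in the sources used here, and their part in the results was not tested.

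**Figure D5:**
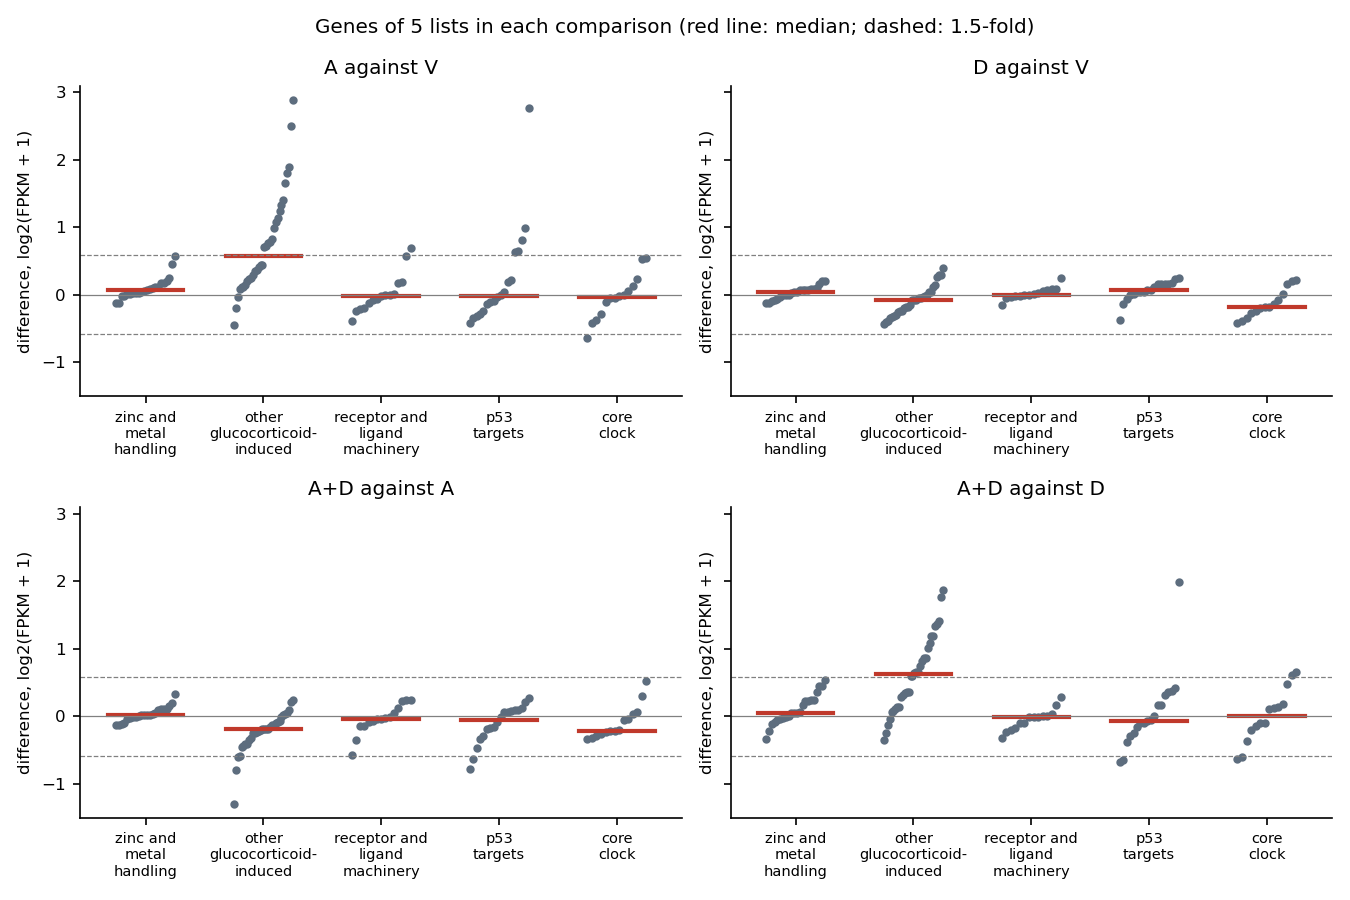
Difference on log2(FPKM + 1) of each gene of 5 lists in the 4 comparisons; each point is a gene, red lines are medians and dashed lines mark 1.5-fold. The points of the other glucocorticoid-induced genes spread upward with amiodarone in both pairs (medians 0.57 and 0.62), while the medians of zinc and metal handling and of the receptor machinery lie between -0.04 and 0.06 in all 4 panels.

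Cell type markers differed among the libraries along with the members. Lung identity was clear, since 6 of 6 alveolar epithelial markers were present and summed to between 27174 and 29144 FPKM. The 4 neutrophil markers, of which Ly6g was under 1 FPKM in all but the amiodarone library, summed to 76.7 FPKM with vehicle, 528.6 FPKM with amiodarone, 57.3 FPKM with dabigatran and 370.9 FPKM with both drugs. The sum was lowest with dabigatran and highest with amiodarone. Between vehicle and dabigatran the markers differed: S100a8 (22.4 and 16.7 FPKM) and S100a9 (45.0 and 31.2 FPKM) were lower. Retnlg was level (9.24 and 9.22 FPKM), and Ly6g had 1 read with vehicle and 3 with dabigatran. Ly6g, the most specific marker, reached 1.39 FPKM with amiodarone. All 6 macrophage markers were detected, with sums of 79.7, 151.9, 76.9 and 174.4 FPKM. The 3 B lymphocyte markers summed to 117.4, 39.3, 97.2 and 69.2 FPKM, and the 3 airway epithelial markers, nearly all Scgb1a1, to between 75329 and 126311 FPKM. The 4 cardiac muscle markers summed to 958.0, 522.7, 699.1 and 463.3 FPKM, lower than vehicle in all 3 treated libraries. Sums for the 3 red blood cell markers were 10789, 14893, 12074 and 5965 FPKM, lowest with both drugs. The 3 smooth muscle markers (385.3, 233.8, 364.0 and 266.3 FPKM) and the 4 adipose markers (13.8, 6.06, 18.0 and 10.2 FPKM) were lower in both libraries with amiodarone. Whether such cells carried any of the differences of the 7 genes was not tested.

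Profiles over the 4 libraries were compared by the root mean square distance between centred log2(FPKM + 1) values. The mean of 9684 genes, members included, reached 5 FPKM, and the nearest genes were taken from these with the members left out. With 4 points per gene, these distances describe the libraries only. Cnbd2 was the gene most like Mt1, at a distance of 0.056, with 46.8, 60.5, 31.9 and 65.1 FPKM with vehicle, amiodarone, dabigatran and both drugs. For Mt2 the nearest outside the set were Gm41476 at 0.115, Gm43305 at 0.164 and Slpi at 0.191, and Mt1 lay at 0.188. I830127L07Rik at 0.062, Cd300lf at 0.078 and Gdf15 at 0.095 were closest to Fkbp5. For Tsc22d3 these were Ifi207, Itgax and Ms4a4c at 0.069, 0.070 and 0.077. Ly6c2, Ms4a8a and Mmp12 were closest to Zbtb16, at 0.10 to 0.138. Sgk1 had the nearest neighbours of the 7, namely Ctsz at 0.038, Ifitm10 at 0.046 and Gdpd1 at 0.048. Cdkn1a was closest to Dhx58 at 0.047, Trnp1 at 0.054 and Slc10a6 at 0.067, the last of which was on the list of glucocorticoid-induced genes. Among the members themselves, Tsc22d3 and Cdkn1a had the smallest distance, 0.160.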

How the data were processed

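Lung poly(A) RNA of 4 mouse groups was sequenced on DNBseq by the authors, 1 library per group. HISAT 2.0.4 placed the reads on GRCm38.p6, Bowtie2 2.2.5 aligned them to the reference transcripts, and RSEM 1.2.8 gave the expression estimates. The authors deposited, for each of 17780 genes and each library, an estimated count of reads and a normalized value. The deposited normalized values are read here as FPKM; the unit is inferred, because reads per value differ between libraries about as, though not exactly as, their totals do. Another 8 columns of the deposited table are means over 2 libraries and were not used. The authors' methods state no test of these data.

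Groups came from the sample labels. Ratios of FPKM were computed between libraries, with exact Clopper-Pearson 95% intervals from the estimated reads rounded to whole numbers (scipy 1.17.1). Reads are not independent molecules, so the intervals cover counting error only. Counts over genes used log2(FPKM + 1), a minimum of 1 FPKM in either library and a 1.5-fold threshold; the pseudocount understates the change of low genes. No p-value was computed. Of the genes in the gene lists, those named passed 1.5-fold with the largest differences, at most 3 in each direction per list and comparison. Per1, Klf9, Dusp1, Nr3c1, Hsd11b1, Mtf1, Slc30a1 and Mdm2 were always named. Txnip, Ddit4, Slc40a1, Scnn1a, Cdkn1b, Hspa8, Nos2, Ccl2, Tnf, Cxcl1, Hp and Cp were named with their values in view, as were single marker genes. The 11 gene lists, the 13 marker lists and the 7 members were chosen with earlier results of these data known. Promoters came from the RefSeq table for GRCm38.p6, which matched 17669 of the gene identifiers (99.4%), and coding sequences from GENCODE M21. The procedure was tested on simulated data. Alternatives were a pseudocount of 0.1, a filter of 5 FPKM or none, a 2-fold threshold, median ratio scaling over 12728 genes, and reads divided by library totals.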

Additional observations from a re-analysis of the deposited data

Results flagged for a closer look

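The difference with dabigatran pointed in opposite directions without and with amiodarone for 2 of the 7 genes. For Zbtb16 the ratio was 1.34 between dabigatran and vehicle and 0.784 between both drugs and amiodarone. For Sgk1 the same ratios were 1.15 and 0.941. Each of the 4 intervals excluded a ratio of 1, but they cover counting error only. With 1 library per group, the difference between these effects was not tested across animals.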

How the results depend on the processing

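The 28 ratios of the members stayed within their counting intervals under median ratio scaling, which moved them by at most 3.43%, and under reads divided by library totals, at most 2.57%. Counts over all genes depended on the settings. The 1.5-fold counts were 582 higher and 527 lower for amiodarone against vehicle, 60 and 68 for dabigatran, 140 and 162 for both drugs against amiodarone, and 435 and 273 for both drugs against dabigatran. With a 2-fold threshold they were 250 higher and 73 lower for amiodarone against vehicle, 12 and 9 for dabigatran against vehicle, 25 and 38 for both drugs against amiodarone, and 154 and 58 for both drugs against dabigatran. With a pseudocount of 0.1 the lower counts were 910, 184, 260 and 549 in that order, and the higher counts were 172 for dabigatran against vehicle and 300 for both drugs against amiodarone. With a filter of 5 FPKM, 336 genes were lower for amiodarone against vehicle, 27 higher and 24 lower for dabigatran against vehicle, and 73 higher for both drugs against amiodarone. At 2-fold, 4 members were higher with amiodarone in each pair, and none was lower in any comparison, Mt2 with dabigatran included. Against vehicle the 4 were Fkbp5, Tsc22d3, Zbtb16 and Cdkn1a. Between both drugs and dabigatran alone Mt2 stood in place of Cdkn1a, with the library that picked Mt2 as the denominator. No paired analysis was possible because each group has 1 library, and for the same reason no library could be left out. Depth was not limiting for the members, but the spread between animals is unknown.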
